A study of Homo sapiens with 6 samples.

Results

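The genes described here encode the translation initiation, elongation and termination factors of the cytosol. Also listed are inhibitors (EIF4EBP1, EIF4EBP2 and EEF2K) and EIF4A3, a core part of the exon junction complex. All were chosen by symbol. Of the 60617 gene rows in the deposited table, 48 had an Ensembl identifier that maps to a symbol on the list. Of these, 47 had enough reads to be tested among 17223 tested genes, and EEF1G was not tested because its row held 0 reads in every library. RNA was measured by sequencing in NCI-H1299, an established human lung cancer cell line that lacks p53 protein, to ask what FuHsi does in the nucleolus. There were 3 libraries of cells with FuHsi knocked down (Sh1 in their titles, the only knockdown named) and 3 control libraries of wild-type cells (Puro in their titles). The labels spell out neither Sh1 nor Puro, name no other treatment, and do not say whether replicates were grown apart. The p-values thus speak only of the spread among these 6 libraries, which may be technical. The level of the FuHsi transcript is not analysed here.

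Eukaryotic translation starts when eIF2 brings the initiator tRNA to the small ribosomal subunit, together with eIF1, eIF1A, eIF3 and eIF5, while the eIF4 factors bind the cap of the mRNA and open its leader. The eIF2B complex reloads eIF2 with GTP, eIF5B joins the large subunit, eEF1A delivers each aminoacyl-tRNA, eEF2 moves the ribosome along, and eRF1 with eRF3 ends the chain. Many mRNAs of this machinery begin with a run of pyrimidines directly after the cap, the terminal oligopyrimidine or TOP tract, through which mTOR signalling controls their translation.

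The libraries held 27900051, 24231515 and 24265216 counts in knockdown, against 34306849, 34196300 and 30735547 in control, so every knockdown library was shallower than every control library. Counts were scaled for depth to CPM with TMM factors, and a gene was called where edgeR's quasi-likelihood test gave a Benjamini-Hochberg adjusted p under 0.05 over all tested genes. The common biological coefficient of variation was 4.67%, and the lowest count of a tested member in any library was 141, for EIF4A1. Marker genes of epithelial, mesenchymal, lung-lineage and other cells were examined, as CPM scaled by library total. KRT8, KRT18, VIM, CDH2 and FN1 were present in all libraries, KRT8 at 331 to 471, VIM at 855 to 1317 and FN1 at 25.6 to 60.9 CPM. EPCAM, CDH1, KRT19, NKX2-1, SFTPB and NAPSA stayed under 1 CPM, and SFTPC had 0 counts. The markers of other cells (PTPRC, COL1A1, PECAM1 and ALB) reached at most 2.19 CPM, for COL1A1. In bulk RNA, fewer cells of a kind and less RNA per cell cannot be told apart.

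Most of the listed genes were lower in knockdown. Of 47 tested members, 36 fell, 7 rose and 4 were not called, and the median log2 fold change of knockdown over control was -0.32. Calls were common in these libraries: 61.6% of all tested genes were called, 30.7% higher and 30.9% lower, against 14.9% higher and 76.6% lower among the members. Falls of at least 1.5-fold were found for EIF4EBP2, EIF4B, EIF3B, GSPT1, EEF2K, EIF5A, EIF2S1, EIF4G1 and EIF4A3, and rises of that size for EIF1B and EIF5. These are 9 lower and 2 higher members, or 19.1% and 4.26%, beside 10.9% and 17.2% of all tested genes. For 43 of the 47, or 91.5%, the ranges of the 2 groups did not overlap, as was so for 65.3% of all tested genes.

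The members are abundant, and abundant genes had lower fold changes throughout. In the top class of 5 equal classes of tested genes by mean log2 CPM, 60.5% were called lower and 26.8% higher, with a median of -0.21, where the median of all tested genes was 0.03. That class held 38 of the members, of which 31 fell and 5 rose, or 81.6% and 13.2%, with a median of -0.29. In 20 equal bins of abundance, the bins within this class had medians from -0.13 to -0.29. The most abundant bin, above a mean log2 CPM of 7.74, held most of these 38 members and had the median of -0.29. Of these 38, 8 were lower and 1 was higher by at least 1.5-fold, beside 16.1% and 6.97% of the 3445 genes in that class. Groups did not overlap for 36 of the 38, beside 88.4% of the class. The part of abundance in the members' falls was not tested. The direction of small changes also depended on scaling. With library size alone in place of TMM, the median of all genes was 0.18 and that of the members was -0.17, and 26 members were lower and 9 higher. All values that follow are on the TMM scale unless stated.

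**Figure D1:**
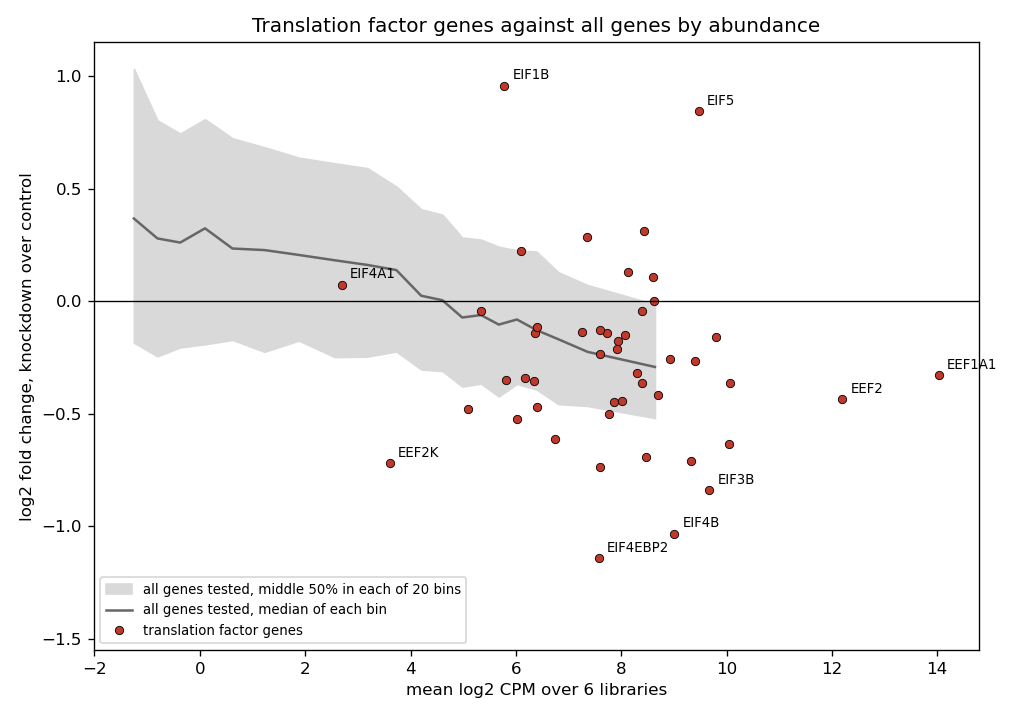
Log2 fold change of knockdown over control against mean log2 CPM over the 6 libraries, for the 47 tested translation factor genes (points), with the median (line) and the middle 50% (band) of all tested genes in 20 bins of abundance. EIF1B and EIF5 lie far above the band and EIF4EBP2, EIF4B and EIF3B far below it, while many members lie within it.

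The first transcribed bases of the members are shown because a TOP tract sits at exactly that place. Of 40 members with an entry in a RefSeq table of gene starts (GRCh38.p14), 10 had an annotated start at C followed without a break by C or T for at least 5 bases in all, on the sense strand only. Such a run was found for 5.14% of all 27305 genes listed there. Each window below holds 10 bases before the start and 20 from it, 5′ to 3′ on the sense strand, with the run in capitals.
EEF1A1: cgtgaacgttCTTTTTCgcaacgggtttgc
EEF2: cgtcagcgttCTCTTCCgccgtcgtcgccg
EEF1B2: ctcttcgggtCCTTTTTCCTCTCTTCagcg
EIF4B: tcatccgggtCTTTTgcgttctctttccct
EIF3F: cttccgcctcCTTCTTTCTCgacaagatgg
EIF3K: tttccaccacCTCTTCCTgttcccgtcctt
EIF2S3: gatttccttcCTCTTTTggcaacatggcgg
EIF4A2: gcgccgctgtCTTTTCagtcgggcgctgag
EIF3B: tcgcacgcacatggctgggctgtagccgtc
EIF1B: cattttgtgcgagaagccgcagcgccgcct
EIF4EBP2: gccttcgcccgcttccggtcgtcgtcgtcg
EIF3D and EIF3M make up the 10. The windows lie at chr6:73521013-73521042 (minus strand) for EEF1A1, chr19:3985444-3985473 (minus) for EEF2, chr2:206159885-206159914 (plus) for EEF1B2, chr12:53006446-53006475 (plus) for EIF4B and chr11:7987327-7987356 (plus) for EIF3F. Those of the others lie at chr19:38619178-38619207 (plus) for EIF3K, chrX:24054946-24054975 (plus) for EIF2S3, chr3:186783567-186783596 (plus) for EIF4A2, chr7:2354817-2354846 (plus) for EIF3B, chr3:40309697-40309726 (plus) for EIF1B and chr10:70404135-70404164 (plus) for EIF4EBP2. EIF3B, EIF1B and EIF4EBP2 are shown as strongly changed members with no capitals.

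Of the 10 members with the run, 8 fell and 2 rose (EIF2S3 and EIF4A2), at a median log2 fold change of -0.28, over a range of -1.03 to 0.31. Scaling by library size alone left 5 lower and 2 higher, with a median of -0.12. Over all tested genes, 30.9% fell and 30.7% rose on the TMM scale. The top abundance class held all 10 members with the run, and 60.5% of that class fell and 26.8% rose, with a median of -0.21. Of the 29 tested members with an entry and no such run, 22 fell, 4 rose and 3 were not called, with a median of -0.36, and with library size alone 17 were lower and 5 higher at a median of -0.21. A separate list of members known to carry TOP tracts (EEF1A1, EEF1B2, EEF1D, EEF1G, EEF2, EIF3E, EIF3F, EIF3H and EIF4B) had 8 tested genes, of which 7 fell and EIF3H was not called, with a median of -0.32. Under library size alone 6 of these 8 were lower and EIF3H was higher, with a median of -0.17. The other 39 members had 29 falls and 7 rises and a median of -0.26. Among those 39 are EIF2S3, EIF3D, EIF3K, EIF3M and EIF4A2, which carry the run described above. On the separate list, EEF1G had an entry and no run, and EEF1D, EIF3E and EIF3H had no entry. These counts describe annotated letters and mRNA levels, and the libraries do not measure translation.

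**Figure D2:**
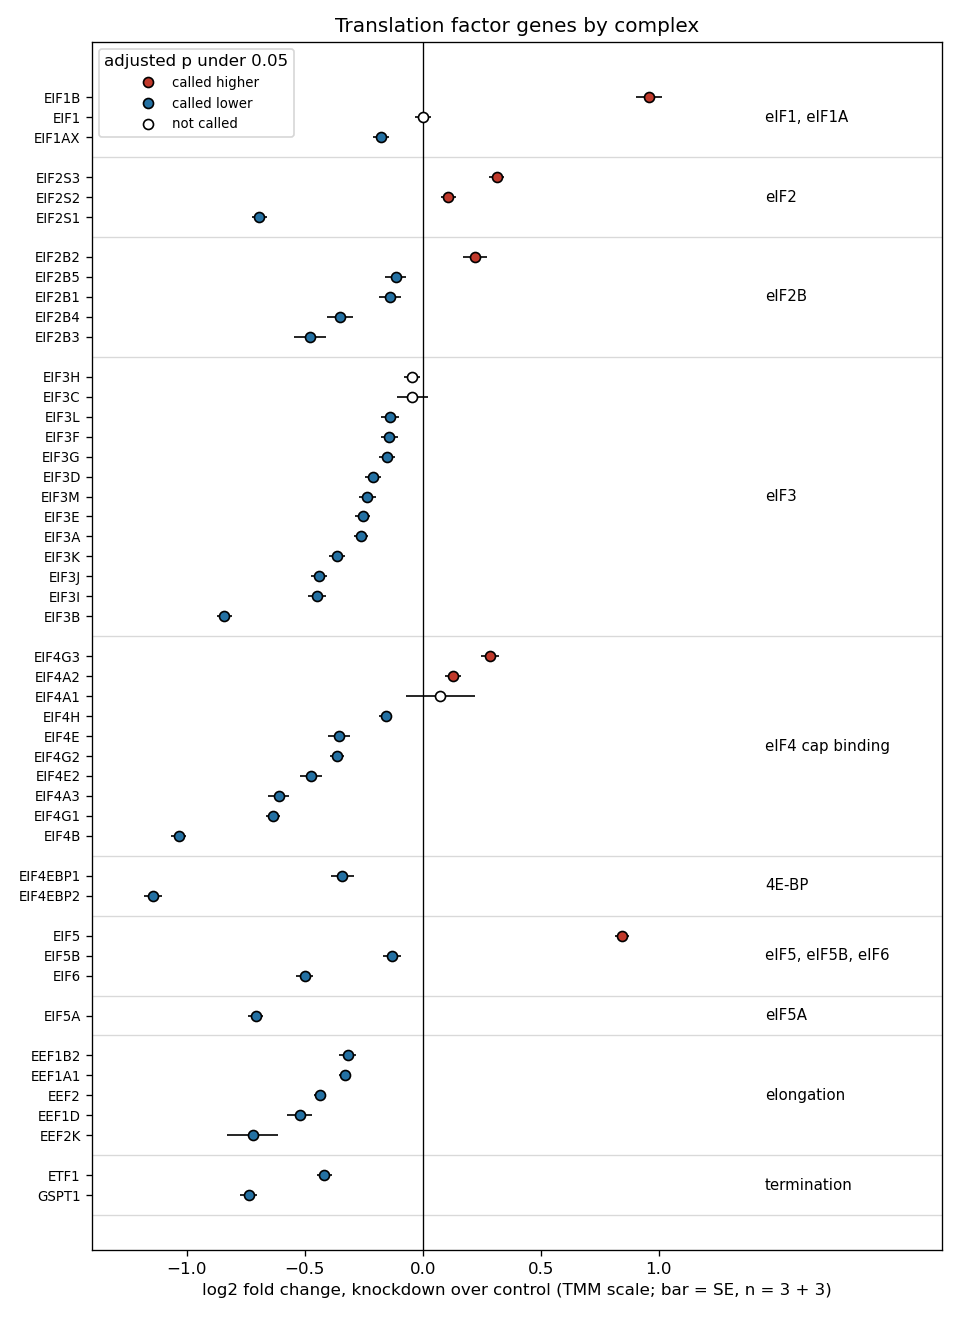
Log2 fold change of knockdown over control with its standard error (bar) for the 47 tested members, grouped by complex; red points were called higher, blue points lower, and white points were not called (3 knockdown and 3 control libraries). EIF1B and EIF5 stand at the highest fold changes and EIF4B and EIF4EBP2 at the lowest, and EIF3B lies apart from the other eIF3 subunits.

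The scanning factors did not move together. EIF1, which guards start codon choice on the scanning ribosome, and its paralog EIF1B differed. EIF1B (ENSG00000114784, GRCh38 chromosome 3, 40309684 to 40312424, plus strand) had 69.9, 75.7 and 73.3 CPM in the knockdown libraries, against 38.8, 35.3 and 38.6 CPM in the control libraries. Every knockdown value was far above every control value, and the log2 fold change was 0.96 ± 0.06 (SE), with an adjusted p of 6.82e-23. EIF1 (ENSG00000173812) had 377, 409.9 and 399 CPM in knockdown and 387, 386 and 412 CPM in control. Its groups overlapped in part, and no call was made at a log2 fold change of 0.00 ± 0.03 (adjusted p = 0.957). Per kilobase of exon, EIF1B stood at 38.2 CPM in knockdown and 19.6 CPM in control, and EIF1 at 109 CPM in both. EIF1AX, the eIF1A factor encoded on the X chromosome, averaged 229 ± 4.20 CPM in knockdown and 259 ± 6.29 CPM in control (SD, n = 3 each) and fell by 0.18 on the log2 scale. With library size alone EIF1AX lost its call, at -0.02, and EIF1 was called higher, at 0.16.

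The 3 subunits of eIF2 went in opposite directions. EIF2S1, the alpha subunit whose phosphorylation slows initiation under stress (chromosome 14, 67359997 to 67386516, plus strand), had 268, 273 and 269.7 CPM in knockdown, against 431, 437 and 444 CPM in control. The groups were widely separate, with a log2 fold change of -0.69 ± 0.03 and an adjusted p of 2.33e-27. EIF2S3, the gamma subunit that binds GTP and the initiator tRNA, had 383, 386 and 380.5 CPM in knockdown, against 316, 308 and 302 CPM in control. It rose by 0.31 ± 0.03, with an adjusted p of 6.42e-13 and all knockdown values above the control values. EIF2S2, the beta subunit, had 404, 390.0 and 422 CPM in knockdown and 377, 377 and 374 CPM in control. Its rise of 0.11 was small, with an adjusted p of 0.00311, and it was lost without knockdown replicate 3, the highest library, where the value was 0.07 with an adjusted p of 0.0702. As a share of all counts, which is scaled by library size alone, the 3 subunits summed to 0.112% in knockdown and 0.106% in control. On that scale EIF2S1 stood at -0.54, EIF2S2 at 0.26 and EIF2S3 at 0.47. The sum was not computed on the TMM scale.

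In eIF2B, the exchange factor of eIF2, 4 subunits fell and 1 rose. Of all tested genes, 30.9% were called lower and 30.7% higher. EIF2B3, the gamma subunit, had the largest fall, with 29.5, 28.8 and 27.0 CPM in knockdown and 37.8, 39.2 and 42.1 CPM in control, a log2 fold change of -0.48 ± 0.07 and an adjusted p of 6.6e-09. EIF2B4 (delta) was at -0.35, EIF2B1 (alpha) at -0.14 and EIF2B5, the catalytic epsilon subunit, at -0.11. EIF2B2, the beta subunit, rose by 0.22 ± 0.05, with 70.3, 74.6 and 75.7 CPM in knockdown and 61.9, 62.6 and 64.6 CPM in control. The groups did not overlap for any of these 5 genes, as was so for 65.3% of all tested genes. In the top abundance class, which held 2 of the 5, the share was 88.4%. EIF2B2 shares 23.6% of its exonic bases with exons of other genes, on any strand, in GENCODE v29, and EIF2B1 shares 15.6%. Whether reads were counted by strand is not known, and the part of such neighbours in these counts was not tested. With library size alone EIF2B1 stood at 0.01 and EIF2B5 at 0.04, and neither was called.

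The eIF3 complex, the large scaffold that holds the small subunit and the mRNA, was lower in most of its subunits by small amounts. Of 13 members, 11 fell, 0 rose and 2 were not called, with a median log2 fold change of -0.23. The top abundance class, which held 12 of the 13, had 60.5% of its genes lower and 26.8% higher, with a median of -0.21. Of all tested genes, 30.9% were lower. EIF3B, a core scaffold subunit (ENSG00000106263, chromosome 7, 2354086 to 2380745, plus strand), stood apart from the others. Its levels were 583, 600.5 and 567 CPM in knockdown, against 1034, 1029 and 1070.0 CPM in control, so each control library held far more than any knockdown library. The log2 fold change was -0.84 ± 0.03, with an adjusted p of 7.31e-33 and a 1.79-fold lower level. The other 12 ran from -0.45 to -0.05, with a median of -0.22.

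Among those 12, EIF3I at -0.45, EIF3J at -0.44 and EIF3K at -0.36 had the lowest values. EIF3I, which binds EIF3B in the core, had 182, 205 and 201 CPM in knockdown and 265, 260.3 and 276 CPM in control, with no overlap. EIF3J, a loosely bound subunit, averaged 219 ± 4.02 CPM in knockdown and 298 ± 7.01 CPM in control (SD, n = 3 each). EIF3A, the largest subunit, EIF3E, EIF3M, EIF3D, the cap-binding subunit, EIF3G, EIF3F and EIF3L fell by 0.14 to 0.26 on the log2 scale. EIF3L has 51.8% of its exonic bases in common with other genes. EIF3C had 39.5, 39.5 and 40.4 CPM in knockdown and 37.2, 39.5 and 46.7 CPM in control. Its log2 fold change of -0.05 was not called (adjusted p = 0.571), and control replicate 3 was its highest library. Its near-identical copy EIF3CL held 81, 87 and 113 counts in knockdown and 95, 82 and 79 counts in control, 7.08% of the reads of the pair, so the level of EIF3C is uncertain. EIF3H at -0.05 was likewise not called (adjusted p = 0.233). With library size alone the complex had 6 members lower and 1 higher, with a median of -0.08; EIF3H was then called higher, at 0.11, and EIF3F, EIF3G and EIF3L stood between 0.00 and 0.01.

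The cap-binding group had the widest spread of the complexes with more than 3 members. Of 10 members, 7 fell, 2 rose and 1 was not called, with a median log2 fold change of -0.36. The top abundance class, which held 9 of the 10, had 60.5% of its genes lower and 26.8% higher, with a median of -0.21. EIF4B, a cofactor of the eIF4A helicase (ENSG00000063046, chromosome 12, 53006158 to 53042209, plus strand), had 336, 355 and 322 CPM in knockdown, against 688, 692 and 694 CPM in control. The knockdown level was 2.05-fold lower, a log2 fold change of -1.03 ± 0.03 with an adjusted p of 1.76e-35. In EIF4B 11.9% of exonic bases lie in other genes too. EIF4H, its smaller relative, averaged 842 ± 1.16 CPM in knockdown and 938 ± 12.5 CPM in control (SD, n = 3 each) and fell by 0.16, a call lost with library size alone.

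The eIF4G scaffolds differed from each other. EIF4G1, which links the cap-binding protein, the helicase and eIF3 (ENSG00000114867, chromosome 3, 184314495 to 184335358, plus strand), had 821, 849.8 and 815 CPM in knockdown, against 1252, 1292 and 1312 CPM in control. The groups were far apart, and it fell by 0.63 ± 0.03 on the log2 scale, with an adjusted p of 1.24e-27. EIF4G2, a relative that lacks the site for the cap-binding protein, had 924, 937 and 942 CPM in knockdown and 1197, 1215 and 1192 CPM in control. It fell by 0.36 with no overlap. EIF4G3, the full-length paralog of EIF4G1 (chromosome 1, 20806292 to 21176888, minus strand), had 176, 176 and 182 CPM in knockdown and 147, 149.7 and 143 CPM in control. It rose by 0.28 ± 0.04, with an adjusted p of 1.66e-09, the reverse direction to EIF4G1.

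Of the proteins that bind the cap, EIF4E had 71.6, 71.2 and 71.6 CPM in knockdown and 91.4, 88.9 and 94.3 CPM in control. EIF4E2, a relative that acts in translational repression, had 69.2, 71.6 and 70.5 CPM in knockdown and 93.2, 95.8 and 104 CPM in control. Both fell with no overlap, EIF4E by 0.36 and EIF4E2 by 0.47, and EIF4E2 has 24.2% of its exonic bases in common with neighbours. Their partner inhibitors, the 4E-BPs, which bind EIF4E and block its contact with eIF4G until mTOR phosphorylates them, fell as well. EIF4EBP2 (ENSG00000148730, chromosome 10, 70404379 to 70428618, plus strand) had the lowest fold change of all members. It stood at 122, 117 and 117 CPM in knockdown, against 255, 268 and 263 CPM in control, 2.21-fold lower, with a log2 fold change of -1.14 ± 0.04 and an adjusted p of 8.87e-35. EIF4EBP1 had 60.7, 64.3 and 65.8 CPM in knockdown and 79.9, 79.3 and 82.7 CPM in control, a fall of 0.34 that left the groups separate. Its adjusted p was 1.23e-08.

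The 3 eIF4A genes encode related helicases. EIF4A3, a core part of the exon junction complex, had 82.3, 81.2 and 90.2 CPM in knockdown, against 129, 126 and 132 CPM in control, and fell by 0.61 ± 0.04 with an adjusted p of 7.28e-19. EIF4A2 had 279, 289 and 308 CPM in knockdown and 273, 271 and 257 CPM in control. Its rise of 0.13 was small, with an adjusted p of 0.00145, and was lost without knockdown replicate 3, the highest library, at 0.08 with an adjusted p of 0.0561. In EIF4A2 17.9% of exonic bases lie in other genes too. EIF4A1 had 8.18, 5.56 and 5.87 CPM in knockdown and 6.67, 6.53 and 5.50 CPM in control, with overlapping groups. Its log2 fold change of 0.07 ± 0.15 was not called (adjusted p = 0.688). Its row is a poor measure of the gene: 48.6% of its exonic bases are shared with other rows, and copies named as its pseudogenes held 34.8% of the reads of gene and copies together. With these copies added, the value was -0.04.

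**Figure D3:**
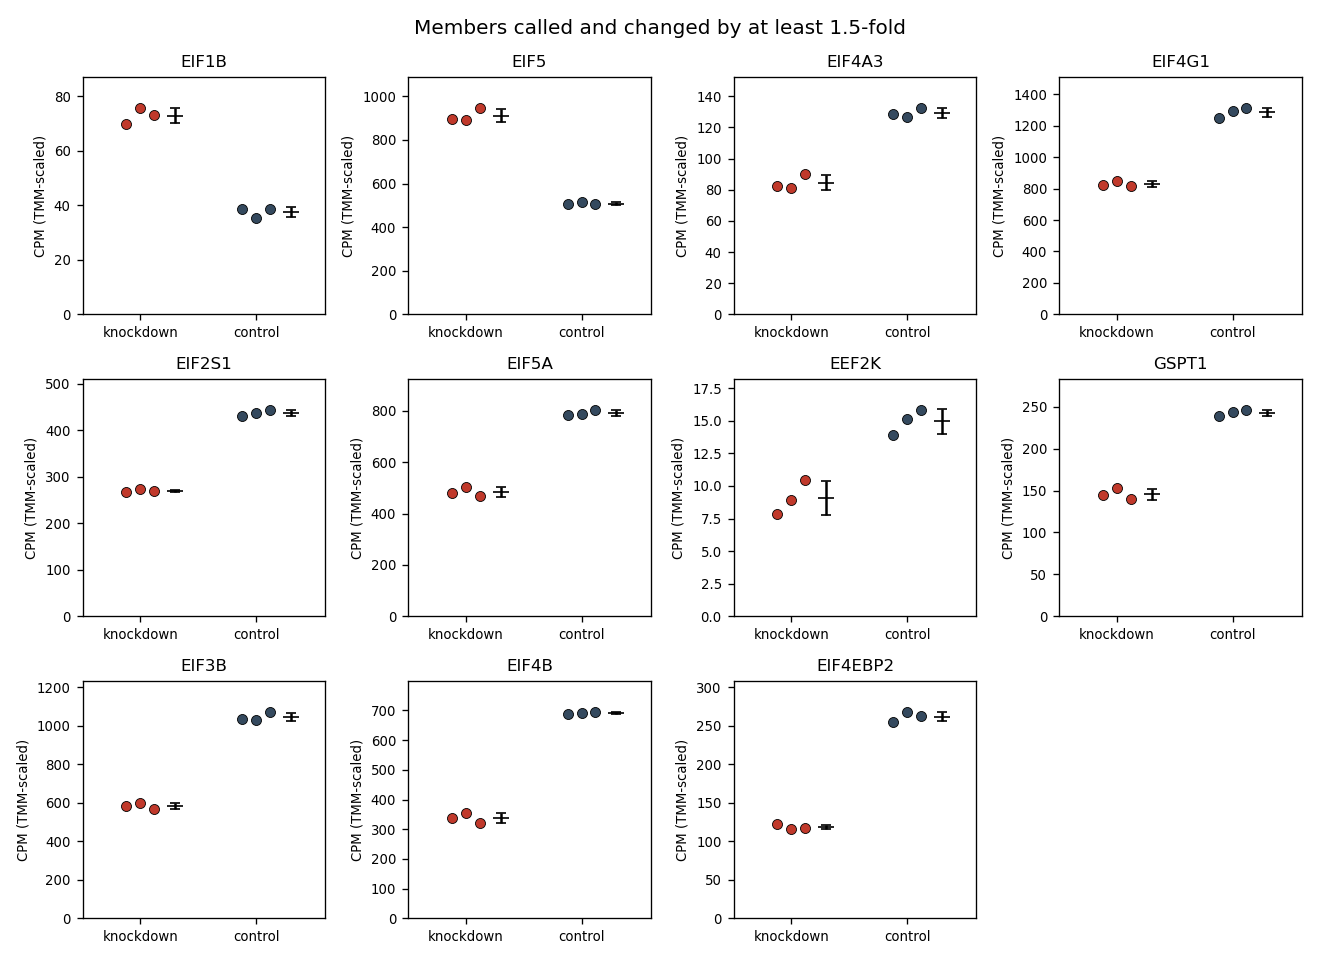
TMM-scaled CPM of the 11 members that were called with a change of at least 1.5-fold, in the 3 knockdown libraries (red, left) and the 3 control libraries (blue, right), with mean and SD beside each group; each axis starts at 0. EIF1B and EIF5 are higher in every knockdown library, the other 9 are lower in every knockdown library, and no groups overlap.

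EIF5 had the largest rise by CPM among the members. EIF5 activates GTP hydrolysis by eIF2 at the start codon (ENSG00000100664, chromosome 14, 103333544 to 103345025, plus strand). It had 897, 893 and 946 CPM in knockdown, against 504, 515 and 505 CPM in control, with a log2 fold change of 0.84 ± 0.03 and an adjusted p of 9.57e-33. Even its lowest knockdown library lay far above its highest control library. EIF5B, the GTPase of subunit joining, averaged 184 ± 3.24 CPM in knockdown and 202 ± 9.17 CPM in control (SD, n = 3 each) and fell by 0.13. That call was lost with upper-quartile factors, at -0.07, and with library size alone, at 0.02. EIF6, which keeps free large subunits from joining too early and takes part in their assembly, had 178, 179.6 and 186 CPM in knockdown and 256, 251 and 263 CPM in control. It fell by 0.50 ± 0.04, with an adjusted p of 4.43e-19 and no overlap, and 17.4% of its exonic bases lie in other genes too.

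All 5 tested genes of elongation fell, among them EEF2K, which inhibits eEF2. Of the top abundance class, which held 3 of them, 60.5% were called lower, and of all tested genes 30.9%. EEF1A1, which carries aminoacyl-tRNA to the ribosome (ENSG00000156508, chromosome 6, 73515750 to 73523797, minus strand), was the most abundant member per kilobase of exon, at 2487 CPM in knockdown and 3125 CPM in control. Its levels were 14664, 14932 and 14787 CPM in knockdown, against 18396, 18359 and 19012 CPM in control. It fell by 0.33 ± 0.02, with an adjusted p of 6.98e-19, and the groups were widely separate. EEF2, the translocase (chromosome 19, 3976056 to 3985469, minus strand), was second per kilobase, at 987 CPM in knockdown and 1335 CPM in control. It had 3883, 4100.1 and 3939 CPM in knockdown, against 5312, 5295 and 5517 CPM in control, and fell by 0.44 ± 0.03 with an adjusted p of 3.39e-22.

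The exchange factor of eEF1A was lower in both subunits that could be tested. EEF1B2 had 266, 296 and 279.8 CPM in knockdown and 334, 351 and 365 CPM in control, a fall of 0.32. EEF1D had 50.8, 57.7 and 50.7 CPM in knockdown and 74.8, 78.1 and 75.3 CPM in control, a fall of 0.52, and its groups were separate. EEF1B2 shares 17.4% and EEF1D 34.03% of their exonic bases with other genes. EEF1G, the third subunit, is listed at 0 in all 6 libraries. It shares 99.9% of its exonic bases with the overlapping row ENSG00000255508, which held 62, 71 and 82 counts in knockdown and 111, 109 and 71 counts in control, so its level is not measured here.

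EEF2K, the kinase that inhibits eEF2, stood low per kilobase of exon, at 1.13 CPM in knockdown and 1.86 CPM in control. It had 7.88, 8.95 and 10.5 CPM in knockdown, against 13.9, 15.1 and 15.8 CPM in control, a log2 fold change of -0.72 ± 0.11 with an adjusted p of 5.15e-08. All knockdown values were below all control values. EIF5A, the hypusine-carrying factor that helps ribosomes past difficult peptide bonds (chromosome 17, 7306999 to 7312463, plus strand), had 479.6, 505 and 468 CPM in knockdown, against 782, 788 and 803 CPM in control. It fell by 0.71 ± 0.03 with an adjusted p of 1.33e-28, 1.63-fold lower with a wide gap between the groups.

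Both termination factors fell, and both lie in the top abundance class, of which 60.5% were called lower. GSPT1, the eRF3 GTPase (chromosome 16, 11868128 to 11916082, minus strand), had 144, 153 and 139.7 CPM in knockdown, against 239, 243 and 246 CPM in control, with a log2 fold change of -0.74 ± 0.04 and an adjusted p of 1.41e-25. ETF1, the eRF1 protein that reads the stop codon, had 359, 344 and 357 CPM in knockdown and 471, 479.8 and 467 CPM in control. Its fall of 0.42 was smaller, with an adjusted p of 5.88e-18 and no overlap.

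Ratios between members were computed within each library from counts per kilobase of exon, so that they do not depend on scaling between libraries. For 12 of 15 ratios the 2 groups of libraries did not overlap. That share was not computed for ratios of other genes. For levels of single genes it was 65.3% of all tested genes and 88.4% of the top abundance class. The exact two-sided permutation test then gave p = 0.1 for each of the 12, the smallest value that 3 against 3 libraries allow, and an adjusted p of 0.125 over the 15 ratios, so the design cannot bring a ratio under 0.05. EIF1B per EIF1 was 0.351, 0.350 and 0.348 in knockdown and 0.190, 0.174 and 0.177 in control, a difference of 0.96 on the log2 scale. EIF4G3 per EIF4G1 was 0.185, 0.179 and 0.192 in knockdown and 0.101, 0.0997 and 0.0935 in control, a difference of 0.92. In both pairs of paralogs the less abundant gene took a larger part in every knockdown library. EIF5 per summed eIF2 differed by 0.83.

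At the mRNA level, EIF4EBP2 per EIF4E had separate groups and EIF4EBP1 per EIF4E did not. Protein levels and phosphorylation were not measured. EIF4EBP2 per EIF4E was 3.31, 3.17 and 3.17 in knockdown and 5.42, 5.84 and 5.40 in control, a difference of -0.79. EIF4EBP1 per EIF4E was 11.1, 11.8 and 12.1 in knockdown and 11.5, 11.7 and 11.5 in control, with overlapping groups, a difference of 0.01 and an exact permutation p of 0.9. EIF4EBP2 per EIF4EBP1 differed by -0.80. Against EIF4G1, EIF4E was higher by 0.28 and EIF4G2 by 0.27 on the log2 scale. EIF6 per EIF5B differed by -0.37, GSPT1 per ETF1 by -0.32, summed eIF2B per summed eIF2 by -0.17 and EIF4E2 per EIF4E by -0.12, each with separate groups. EEF2K per EEF2 overlapped between the groups, with a difference of -0.29 and an exact permutation p of 0.2. Ratios over EIF4A1 rest on its low row, with EIF4A2 per EIF4A1 at 0.08 (exact permutation p = 0.8) and EIF4A3 per EIF4A1 at -0.66.

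**Figure D4:**
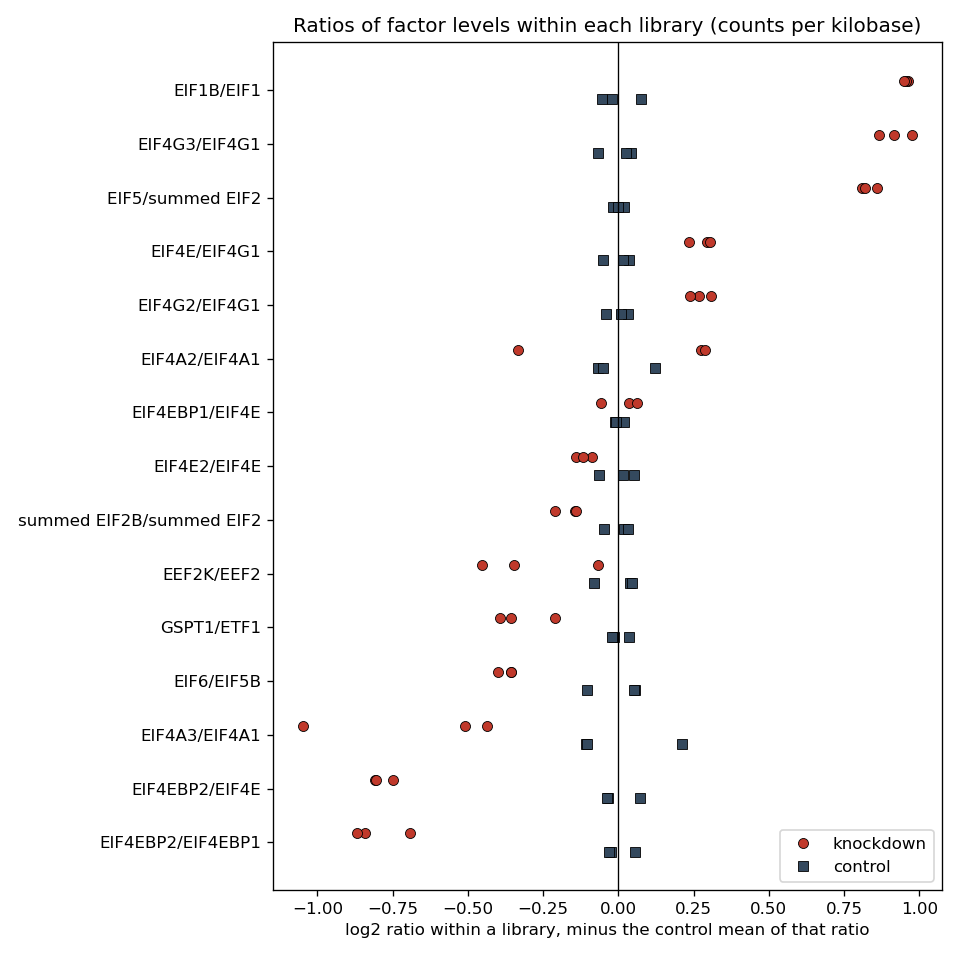
Log2 ratio of 2 members, or of summed complexes, within each library from counts per kilobase, less the control mean of that ratio; red circles are the 3 knockdown libraries and dark squares, drawn below them, the 3 control libraries. EIF1B/EIF1, EIF4G3/EIF4G1 and EIF5/summed EIF2 are higher in every knockdown library, EIF4EBP2/EIF4E and EIF4EBP2/EIF4EBP1 are lower, and EIF4A2/EIF4A1, EIF4EBP1/EIF4E and EEF2K/EEF2 overlap.

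Together the members took 3.26% ± 0.0171 of all counts in knockdown and 3.69% ± 0.0357 in control (SD, n = 3 each), a difference of -0.430 percentage points with an exact permutation p of 0.1. EEF1A1 made up a large part: without it the shares were 1.71% in knockdown and 1.93% in control. The eIF3 genes took 0.392% in knockdown and 0.452% in control, and the cap-binding group 0.384% in knockdown and 0.460% in control. The joining factors EIF5, EIF5B and EIF6 together took 0.135% in knockdown and 0.0915% in control. On the TMM scale EIF5 alone was called higher, while EIF5B and EIF6 were called lower. With library size alone, which is the scale of these shares, EIF5B stood at 0.02 and was not called. The share of eIF2B was 0.0326% in knockdown and 0.0321% in control, with overlapping libraries and an exact permutation p of 0.4.

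Further genes of translation were described from lists of 63 symbols, of which 62 were tested. Of these, 37 fell, 13 rose and 12 were not called, and the median log2 fold change was -0.18. The shares were 59.7% lower and 21.0% higher, beside 30.9% and 30.7% of all tested genes, and 60.5% and 26.8% of the top abundance class, which held 28 of them. With library size alone 24 of them were lower and 20 higher, with a median of -0.02. Up to 2 of the largest called rises and 2 of the largest called falls of each list are named, among genes at a mean log2 CPM of at least 1. Among 14 tested paralogs and further factors, 7 fell and 2 rose, and with library size alone 5 were lower and 5 higher. EIF2A, an alternative carrier of the initiator tRNA, rose to 147 ± 2.93 CPM in knockdown, against 78.9 ± 3.69 CPM in control (SD, n = 3 each), and EIF2D rose by 0.39. EEF1E1, a scaffold of the tRNA synthetase complex, fell by 0.95, and EEF1A2, the paralog of EEF1A1, by 0.83.

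Of 13 further genes linked to initiation, which include inhibitors such as PDCD4, 10 fell and 3 rose. Of all tested genes, 30.9% were called lower and 30.7% higher. The top abundance class, which held 8 of the 13, had 60.5% lower and 26.8% higher. With library size alone 7 of the 13 were lower and 3 higher. PABPC4, a cytoplasmic poly(A)-binding protein, averaged 202 ± 9.81 CPM in knockdown and 458 ± 12.3 CPM in control, a log2 fold change of -1.18, and LARP1, which binds TOP mRNAs, fell by 0.68. DHX29, a helicase for structured leaders, rose by 0.22, and PDCD4, an inhibitor of eIF4A, by 0.18. The groups overlapped for PDCD4, with 43.4, 46.2 and 50.2 CPM in knockdown and 43.5, 42.2 and 37.6 CPM in control. Of 8 genes for release, rescue and recycling, 5 fell and 3 rose, beside 30.9% and 30.7% of all tested genes. The top abundance class held 4 of these 8. With library size alone 3 were lower and 3 higher, since NEMF and LTN1 lost their calls. ABCE1, which splits ribosomes after termination, averaged 85.9 ± 3.89 CPM in knockdown and 170.0 ± 2.26 CPM in control and fell by 0.98. HBS1L, a rescue GTPase, fell by 0.65, while EFL1, which helps remove EIF6 from new large subunits, rose by 0.33 and GSPT2, the paralog of GSPT1, by 0.29.

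Of 13 enzymes that modify eIF5A, eEF1A or eEF2, 10 fell and 0 rose. Of all tested genes, 30.9% were called lower and 30.7% higher, and the top abundance class held only 2 of the 13. With library size alone 7 of the enzymes were lower and 1 (DPH7) higher. The methyltransferases EEF1AKMT4 and EEF1AKMT1 fell by 0.91 and 0.82. Of 14 signalling genes, 5 rose and 5 fell, shares near the 30.7% and 30.9% of all tested genes, and with library size alone 8 were higher and 2 lower. EIF2AK2, the kinase PKR that phosphorylates eIF2 alpha, had 300.1, 298 and 350.0 CPM in knockdown and 74.1, 79.9 and 78.1 CPM in control. It rose by 2.03 ± 0.05 on the log2 scale, and the adjusted p was 2.13e-18. PPP1R15A, the GADD34 subunit of the phosphatase that reverses this mark, rose by 1.19, to 181 ± 19.8 CPM in knockdown, against 79.3 ± 2.76 CPM in control. MKNK1 and MKNK2, the kinases of EIF4E, went in opposite directions. MKNK1 averaged 16.1 ± 0.885 CPM in knockdown and 21.1 ± 0.817 CPM in control (SD, n = 3 each) and fell by 0.39. MKNK2 averaged 138 ± 4.57 CPM in knockdown and 89.5 ± 2.49 CPM in control and rose by 0.63, with an adjusted p of 3.54e-20. RPTOR, a subunit of mTOR complex 1, fell by 0.26, and MTOR, its kinase, rose by 0.11. MKNK2 and MTOR were named after their values were seen.

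Reads can be split between a gene and its processed pseudogenes. For 28 members the table held 157 rows named as copies, and for 25 of these members the copies made up under 2% of the reads of gene and copies together. The exceptions were EEF1G, EIF3C and EIF4A1. For EEF1A1, the member with the most such rows, the share was 1.05%.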

How the data were processed

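Per the labels' protocols, total RNA of NCI-H1299 cells was isolated with RNAiso Plus and made into TruSeq libraries. The authors deposited raw read counts per Ensembl gene, not normalized, for 6 libraries. The tools were featureCounts 2.0.1, STAR 2.7.0d, DESeq2 1.30.1 and Trim Galore 0.6.6, with genome build hg38, per the submitters' processing notes. Their order, settings, strand and multiple-alignment treatment and annotation release were not given in the sources used here, so counts of overlapping, antisense and copied genes are uncertain.

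The whole table was fitted: filterByExpr of edgeR 4.0.16 (minimum count 10), TMM factors, and the robust quasi-likelihood test with group as the only term in R 4.3.3, with Benjamini-Hochberg adjustment over 17223 genes. Log2 fold changes are knockdown over control, with a standard error (SE) from the test statistic. TMM factors were 1.05 to 1.06 in knockdown and 0.941 to 0.954 in control. Exon lengths, shared exonic bases and gene coordinates came from GENCODE v29. Start sequences came from RefSeq (GRCh38.p14).

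Members and lists were chosen with earlier results of these data known. Named genes were all members called with a change of at least 1.5-fold, the largest rise and fall per complex, the genes in the ratios and up to 2 rises and 2 falls per further list at a mean log2 CPM of at least 1. Alternatives were RLE and upper-quartile factors, library size alone, no filter, a replicate block, leaving out each library, DESeq2 1.42.0, limma 3.58.1 (voom), copies added and thinning to the smallest library. Replicates differed beyond sampling noise, with a chi-square per degree of freedom of 2.79 to 4.60.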

Additional observations from a re-analysis of the deposited data

How the results depend on the processing

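Over 15 alternatives, 31 of the 47 tested members kept their direction and their call in all, and 16 changed in at least 1. Members lower numbered 26 (library size alone) to 36, and members higher 5 (without knockdown replicate 3) to 9 (library size alone). The 9 members lower by at least 1.5-fold became 3 with library size alone (EIF3B at -0.69, EIF4B at -0.88 and EIF4EBP2 at -0.99), and the 2 higher stayed 2 in every alternative. Library size alone raised the share of higher genes among all called genes to 64.4%, against 49.9% with TMM. Leaving out each library gave 35 to 36 members lower, 5 to 7 higher and 9 to 10 lower by at least 1.5-fold, and a difference of the members' share of counts of -0.442 to -0.410. With the replicate number as a block, 36 members were lower and 7 higher, and 9 were lower and 2 higher by at least 1.5-fold. Deviations of same-numbered libraries correlated at 0.00787, -0.0148 and -0.0153, so the numbers give no sign of pairing.

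Changes of sign were found near 0, and their cause was not tested. With library size alone they were EIF2B1 at 0.014, EIF2B5 at 0.039, EIF3C at 0.11, EIF3F at 0.012, EIF3G at 0.0019, EIF3H at 0.11, EIF3L at 0.015 and EIF5B at 0.024. With upper-quartile factors EIF3C and EIF3H were each at 0.015. EIF1, at 0.00, lay at -0.0071 with RLE, -0.015 with no filter and -0.022 with DESeq2. EIF4A1 lay at -0.042 with copies added. Leaving out 1 library gave -0.035 (without knockdown replicate 2) to 0.032 for EIF1, -0.12 to 0.048 (without control replicate 3) for EIF3C and -0.13 (without knockdown replicate 1) to 0.17 for EIF4A1. It gave -0.030 (without knockdown replicate 3) to 0.28 for EIF4A2 per EIF4A1 and -0.010 (without knockdown replicate 3) to 0.049 for EIF4EBP1 per EIF4E. Calls were lost with library size alone for EIF1AX, EIF3D (-0.06), EIF3M (-0.08) and EIF4H, with upper-quartile factors for EIF2B1, EIF2B5, EIF3L and EIF5B, and without knockdown or control replicate 2 for EIF2B5 (-0.11 each). The adjusted p was missing in DESeq2 for 10856 genes with counts.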
